A study of Mus musculus with 2 samples.

Results

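Rab GTPases are the small GTP-binding proteins that give each membrane compartment of a cell its identity and steer vesicles between compartments. All protein-coding genes of the table with a name made of Rab, a number and at most a closing letter and digit were taken, which gave 59 genes among 46095 rows, of which 22673 are typed as mRNA. They were read in 2 RNA libraries of mouse acute myeloid leukaemia cells, described as leukaemia-initiating cells and sorted from bone marrow as Mac1+ c-Kit+ cells of C57BL/6 mice aged 8 weeks. One library has the genotype P2x7-KO (its title ends in KD) and the other the genotype wild type (its title ends in Scr). P2x7 is an ATP-gated cation channel, and by the genotype labels the comparison sets cells without it against cells with it. The title endings KD and Scr can instead name a knockdown and its control, and the labels do not settle which was made. The leukaemia-driving change, the number of mice per library and the way P2x7 was altered are not stated in the labels. Each group holds 1 library, so no test between genotypes was possible, and every interval below is an exact 95% interval that covers counting error only.

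A Rab protein carries a lipid tail and cycles between an inactive GDP-bound form, held in the cytosol by GDI, and an active GTP-bound form on a membrane. Guanine nucleotide exchange factors (GEFs) switch it on, GTPase-activating proteins (GAPs) switch it off, and the active form recruits effectors such as tethers, motors and kinases. In myeloid cells these steps run phagocytosis, lysosome delivery and the making and release of granules.

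Before the Rab values, the labels were checked. P2rx7, which encodes P2x7, had 543 counts (42.6 CPM, counts per 1000000 on the scaled library size) under the P2x7-KO label and 229 counts (18.8 CPM) under the wild type label, a ratio of 2.27 (1.94 to 2.66). Its direction thus goes against the label, and all directions below are between the libraries so labelled. The counts summed to 12435916 over 18983 detected genes in the library labelled P2x7-KO and to 12456212 over 18440 detected genes in the library labelled wild type. The sort genes were present in both: Kit had 67.6 CPM under the P2x7-KO label and 46.0 CPM under the wild type label, and Itgam, which encodes the Mac1 chain, had 543 CPM under the P2x7-KO label and 187 CPM under the wild type label. Monocyte and macrophage markers summed to 4442 CPM under the P2x7-KO label and 2450 CPM under the wild type label, with 7 of 11 counted markers at least 2-fold higher and none of the 12 at 0. Mast cell and basophil markers summed to 113 CPM under the P2x7-KO label and 568 CPM under the wild type label, with 3 of 6 counted markers at least 2-fold lower, and Cma1, Fcer1a and Tpsb2 were at 0 in both. Neutrophil markers summed to 3435 CPM under the P2x7-KO label and 3733 CPM under the wild type label. Of 11 counted neutrophil markers, 1 was at least 2-fold higher and 2 were at least 2-fold lower. Erythroid markers summed to 11.3 CPM under the P2x7-KO label and 1.32 CPM under the wild type label, with 2 of 2 counted markers higher. B-lymphoid markers summed to 99.2 CPM under the P2x7-KO label and 132 CPM under the wild type label, with 2 of 4 counted markers higher and 1 lower. Of 4 counted dendritic markers 2 were higher, and of 2 counted megakaryocyte and platelet markers 1 was higher and 1 lower. The 1 counted T and NK marker, Nkg7, was lower, with 105 counts under the P2x7-KO label and 307 under the wild type label. Among the T and NK markers with too few counts, Cd3e, Cd3g, Cd4, Cd8a and Klrb1c went the other way. Of these Klrb1c had 14 counts under the P2x7-KO label and 1 under the wild type label. In bulk RNA, fewer cells of a type and less RNA per cell cannot be told apart.

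The Rab family took a somewhat larger part of the library labelled P2x7-KO. Its 59 genes summed to 51360 counts there, 0.413% of all counts (0.409% to 0.417%), and to 44772 counts, 0.359% (0.356% to 0.363%), in the library labelled wild type. Rab7, Rab1b, Rab27a, Rab5c, Rab2a and Rab44 led the family per exon length in both libraries, though not in the same order. The 5 highest Rabs held 46.2% of the summed Rab CPM per kb in the library labelled P2x7-KO and 50.05% in the library labelled wild type. The ranks of the 44 Rabs with enough counts to compare were close between libraries (Spearman's rho 0.975 of CPM per kb, a description over genes that share both libraries).

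Of the 59 genes, 44 had at least 20 counts over both libraries and were compared. Rab15, Rab27b, Rab39b, Rab3b, Rab3c, Rab40b and Rab9b had 0 counts in both, which, with 3 counts taken as the limit that a count of 0 allows, leaves room for up to 0.236 CPM in the library labelled P2x7-KO and 0.247 CPM in the library labelled wild type. The other 8 had too few counts: they were Rab4a, Rab17, Rab13, Rab26, Rab33a, Rab38, Rab42 and Rab30, each with 0 to 7 counts under the P2x7-KO label and 1 to 8 under the wild type label. Among these 8, Rab4a alone had an interval off 1, with 1 count under the P2x7-KO label and 8 under the wild type label, a ratio of 0.119 (0.00269 to 0.891).

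**Figure D1:**
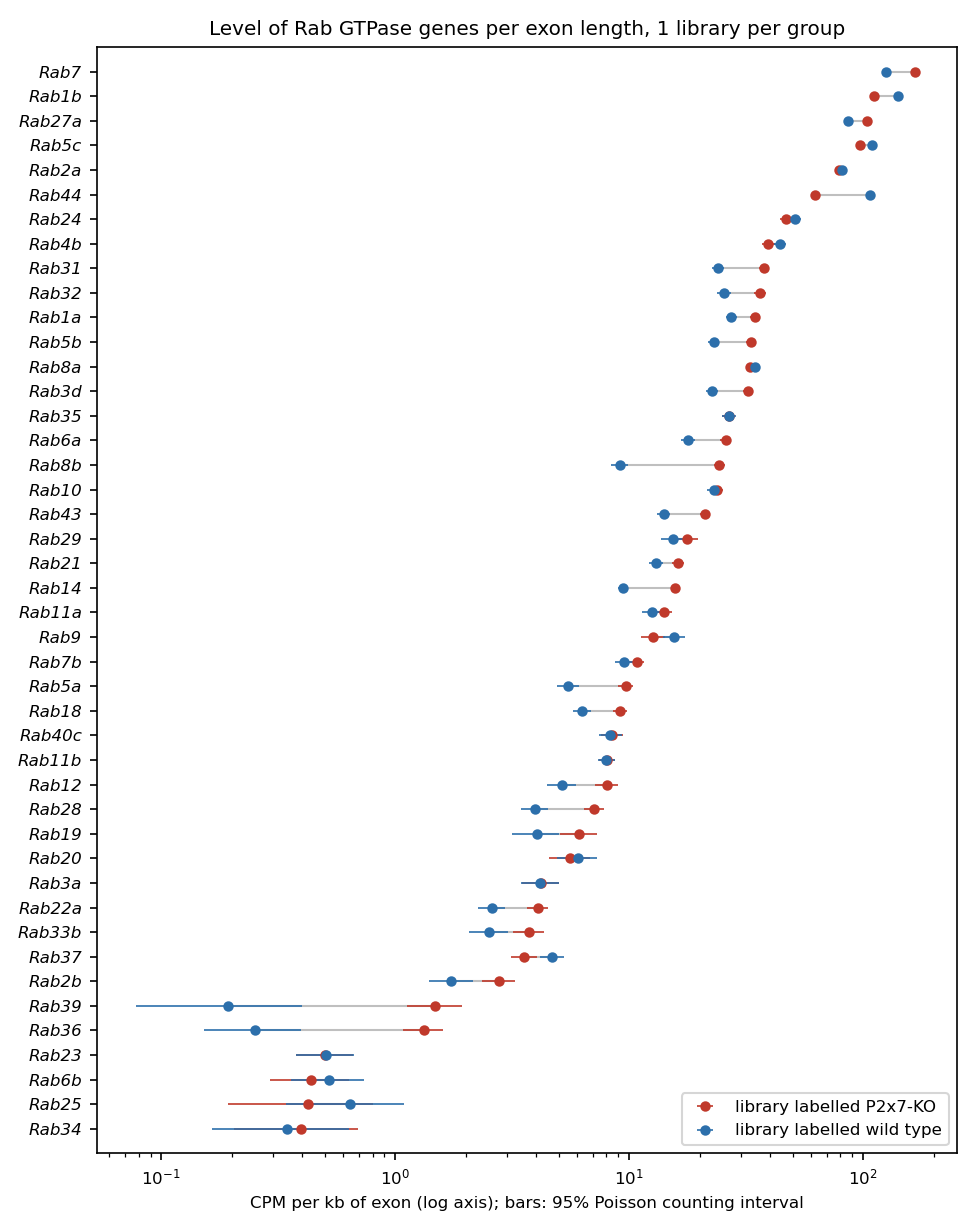
Level of each Rab gene with at least 20 counts over both libraries, as CPM per kb of exon on a log axis, red for the library labelled P2x7-KO and blue for the library labelled wild type, with exact 95% Poisson counting intervals and 1 library per group. Rab7 lies highest in the library labelled P2x7-KO at 167 CPM per kb, Rab1b highest in the library labelled wild type at 141, and Rab39, Rab36 and Rab8b show wide gaps with the red point on the right.

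At the threshold of 2-fold or more with an interval off 1, 3 of the 44 Rabs were higher under the P2x7-KO label, none was lower, and 41 were neither. Over all 13363 genes with enough counts, 10.8% were called higher and 8.95% lower by the same rule, and the share of Rabs called higher, 6.82%, is below that of all genes. At 1.5-fold, 11 of the 44 Rabs were higher and 1, Rab44, was lower, beside 21.1% and 18.9% of all genes. The share of Rabs called higher thus lay a little above that of all genes at 1.5-fold, unlike at 2-fold. The Rabs were shifted a little upward as a whole: 30 lay above equality and 14 below, beside 6714 above and 6649 below over all genes. The median log2 ratio of the Rabs was 0.23, beside 0.00 over all genes and 0.04 over mRNA genes. Their log2 ratio went with exon length (Pearson's r 0.27) and against GC content (r -0.42) over the 44 genes, as it did over 11188 mRNA genes (0.34 and -0.31), so each ratio was also adjusted for both. After that adjustment the median log2 ratio was 0.30 for the Rabs and -0.01 for all genes.

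**Figure D2:**
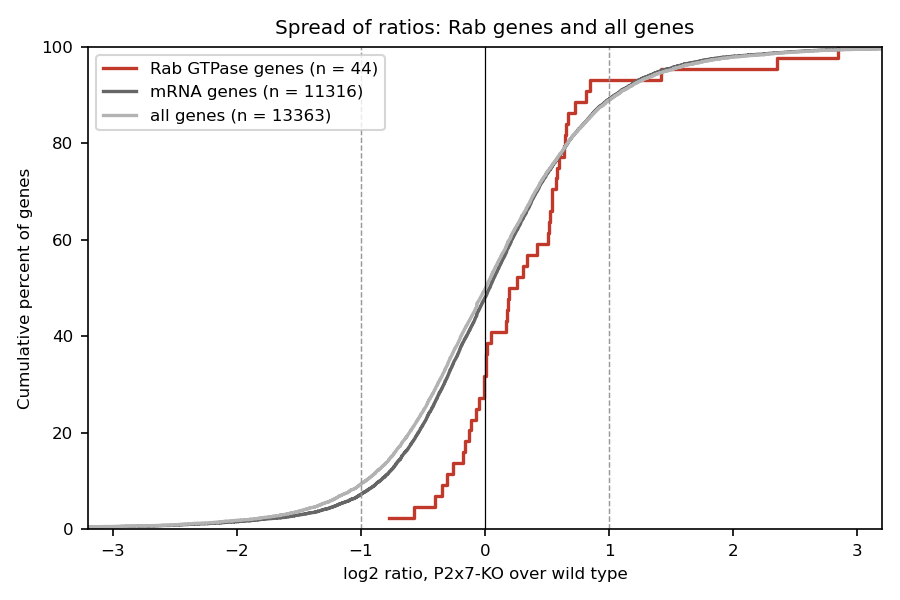
Cumulative percent of genes at or below each log2 ratio (library labelled P2x7-KO over library labelled wild type), for 44 Rab genes in red, 11316 mRNA genes in dark grey and 13363 genes of all types in light grey; dashed lines mark 2-fold. The Rab curve lies to the right of the others up to about 1.5-fold higher and crosses them there, with a median of 0.23 against 0.00 for all genes.

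The 3 Rabs called higher were Rab39, Rab36 and Rab8b. Rab39, placed here with the Golgi Rabs, also acts in phagosome traffic. It had 56 counts (4.40 CPM) under the P2x7-KO label and 7 counts (0.575 CPM) under the wild type label, a ratio of 7.64 (3.48 to 19.9). Rab36, also grouped with the Golgi Rabs, which in other cells places late endosomes and lysosomes near the nucleus, had 104 counts (8.17 CPM) under the P2x7-KO label and 19 counts (1.56 CPM) under the wild type label, a ratio of 5.23 (3.19 to 9.03). Both sit low in the family, below 1.5 CPM per kb in each library, and the intervals of their ratios are wide. Rab8b, which carries vesicles from the Golgi and recycling endosomes to the plasma membrane, was far better counted, with 1466 counts (115 CPM) under the P2x7-KO label and 524 counts (43.1 CPM) under the wild type label, a ratio of 2.67 (2.42 to 2.96). Adjusted for length and GC content, their log2 ratios were 2.71, 2.33 and 1.10 in the same order, against 2.85, 2.36 and 1.42 before. Of the counted markers of monocytes and macrophages 7 of 11 were called higher too, with the sums given above, and their part in these values was not tested. On GRCm38, Rab39 lies on chromosome 9 from 53684110 to 53706232 (minus strand), Rab36 on chromosome 10 from 75037058 to 75054748 (plus strand) and Rab8b on chromosome 9 from 66843664 to 66919687 (minus strand), by GENCODE M21.

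The 250 bases upstream of the RefSeq start of Rab39, Rab8b and Rab8a are shown (GRCm38.p6). Rab39 and Rab8b are among the Rabs called higher, and Rab8a is the close relative of Rab8b that was not called. Rab36, also called higher, is not shown. The sequences run 5′ to 3′ on the gene's strand, and capitals mark GC boxes (GGGCGG) and CCAAT boxes (CCAAT) on either strand. They lie at chr9:53706233-53706482 (minus strand), chr9:66919706-66919955 (minus strand) and chr8:72160950-72161199 (plus strand).
Rab39: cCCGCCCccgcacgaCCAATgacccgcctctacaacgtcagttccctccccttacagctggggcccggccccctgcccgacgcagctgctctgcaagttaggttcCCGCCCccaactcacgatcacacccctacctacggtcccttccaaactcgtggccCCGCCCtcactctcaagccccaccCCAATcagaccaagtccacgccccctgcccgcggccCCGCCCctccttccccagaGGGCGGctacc
Rab8b: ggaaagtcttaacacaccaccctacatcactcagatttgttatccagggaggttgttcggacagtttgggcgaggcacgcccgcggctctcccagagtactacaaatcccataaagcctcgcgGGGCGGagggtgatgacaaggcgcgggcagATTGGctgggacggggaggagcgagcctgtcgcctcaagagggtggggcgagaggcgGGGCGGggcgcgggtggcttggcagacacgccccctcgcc
Rab8a: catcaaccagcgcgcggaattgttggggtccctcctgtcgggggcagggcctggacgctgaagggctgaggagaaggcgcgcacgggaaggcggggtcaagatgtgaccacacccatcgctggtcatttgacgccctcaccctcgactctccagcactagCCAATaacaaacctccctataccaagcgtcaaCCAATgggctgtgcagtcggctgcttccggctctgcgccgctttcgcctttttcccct
All 3 windows are rich in G and C, at 68.8% for Rab39, 64.4% for Rab8b and 61.6% for Rab8a. The Rab39 window holds 5 GC boxes and 2 CCAAT boxes, that of Rab8b 2 GC boxes and 1 CCAAT box, and that of Rab8a 0 GC boxes and 2 CCAAT boxes. A GC box occurs in 66.7% of 60 windows of 48 Rab genes and in 32.7% of all 32851 windows of the table. All windows together cover 27025 genes and were not filtered by gene type, and no share over mRNA genes alone was computed. A CCAAT box occurs in 40.0% of the Rab windows and 33.8% of all, and the TATA box (TATAAA) in 6.67% of the Rab windows and 12.4% of all. The median window held 15 CpG and 60.2% GC in the Rabs, and 6 CpG and 52.4% GC over the whole table. These letters are a description of the windows and mark no binding.

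Most Rabs of the ER and Golgi group work on the early secretory route. The group had a median log2 ratio of 0.54, or 0.48 after adjustment, over 13 counted genes of 16. Of these, 2 were called higher, none lower and 11 neither. The called genes were Rab39 and Rab36, whose known roles reach past the Golgi to phagosomes, late endosomes and lysosomes. Rab1b, which moves vesicles from the ER to the Golgi, led the group per length, with 3212 counts (252 CPM) under the P2x7-KO label and 3896 counts (320 CPM) under the wild type label. It was 1.27-fold lower (1.21 to 1.33), but its log2 ratio of -0.34 became 0.15 once adjusted for length and GC content. Its partner Rab1a leaned the other way, with 1671 counts (131 CPM) under the P2x7-KO label and 1262 counts (104 CPM) under the wild type label, a ratio of 1.26 (1.18 to 1.36). Rab2a, which acts between ER and Golgi, was nearly even, with 2142 counts under the P2x7-KO label and 2112 under the wild type label, a ratio of 0.969 (0.912 to 1.03). The scarcer Rab2b had 147 counts under the P2x7-KO label and 88 under the wild type label, a ratio of 1.596 (1.22 to 2.10). Rab6a, of retrograde Golgi transport, had 1227 counts under the P2x7-KO label and 808 under the wild type label, a ratio of 1.45 (1.33 to 1.59). The neuronal relative Rab6b was scarce, with 28 counts under the P2x7-KO label and 32 under the wild type label. Rab18, found on the ER and lipid droplets, had 796 counts under the P2x7-KO label and 523 under the wild type label, and Rab43, of ER and Golgi transport, had 1483 counts under the P2x7-KO label and 947 under the wild type label. Rab33b, which binds the autophagy protein Atg16l1, had 168 counts under the P2x7-KO label and 108 under the wild type label, and Rab19 had 122 counts under the P2x7-KO label and 77 under the wild type label. These 4 had ratios between 1.45 and 1.51 with intervals above 1, whereas Rab34 had only 12 counts under the P2x7-KO label and 10 under the wild type label. After adjustment the log2 ratio of Rab18 was 0.06, that of Rab43 0.68, that of Rab33b 0.48 and that of Rab19 0.87.

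All 7 early endosome Rabs were counted, with a median log2 ratio of 0.52, or 0.37 after adjustment, and none was called. The Rab5 proteins fuse incoming vesicles with early endosomes. Rab5c was by far the highest, with 2705 counts (96.8 CPM per kb) under the P2x7-KO label and 2914 counts (109 CPM per kb) under the wild type label, 1.13-fold lower (1.07 to 1.19). Its log2 ratio moved to 0.17 after adjustment, on the other side of equality. Rab5a had 648 counts under the P2x7-KO label and 351 under the wild type label, a ratio of 1.76 (1.55 to 2.01). Rab5b had 1768 counts under the P2x7-KO label and 1174 under the wild type label, a ratio of 1.44 (1.34 to 1.55). The 2 scarcer forms thus had ratios above 1 while the leading form did not. Rab31, a relative of Rab22a in endosome traffic, had 1824 counts under the P2x7-KO label and 1114 under the wild type label, a ratio of 1.56 (1.45 to 1.69) that did not shrink on adjustment (log2 0.65 both ways). Rab22a had 373 counts under the P2x7-KO label and 227 under the wild type label, a ratio of 1.57 (1.33 to 1.86). Its log2 ratio of 0.65 was 0.34 after adjustment. Rab21, of integrin endocytosis, had a ratio of 1.24 (1.13 to 1.36) that was gone on adjustment (log2 0.00), and Rab20, of phagosome maturation, had 99 counts under the P2x7-KO label and 102 under the wild type label.

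**Figure D3:**
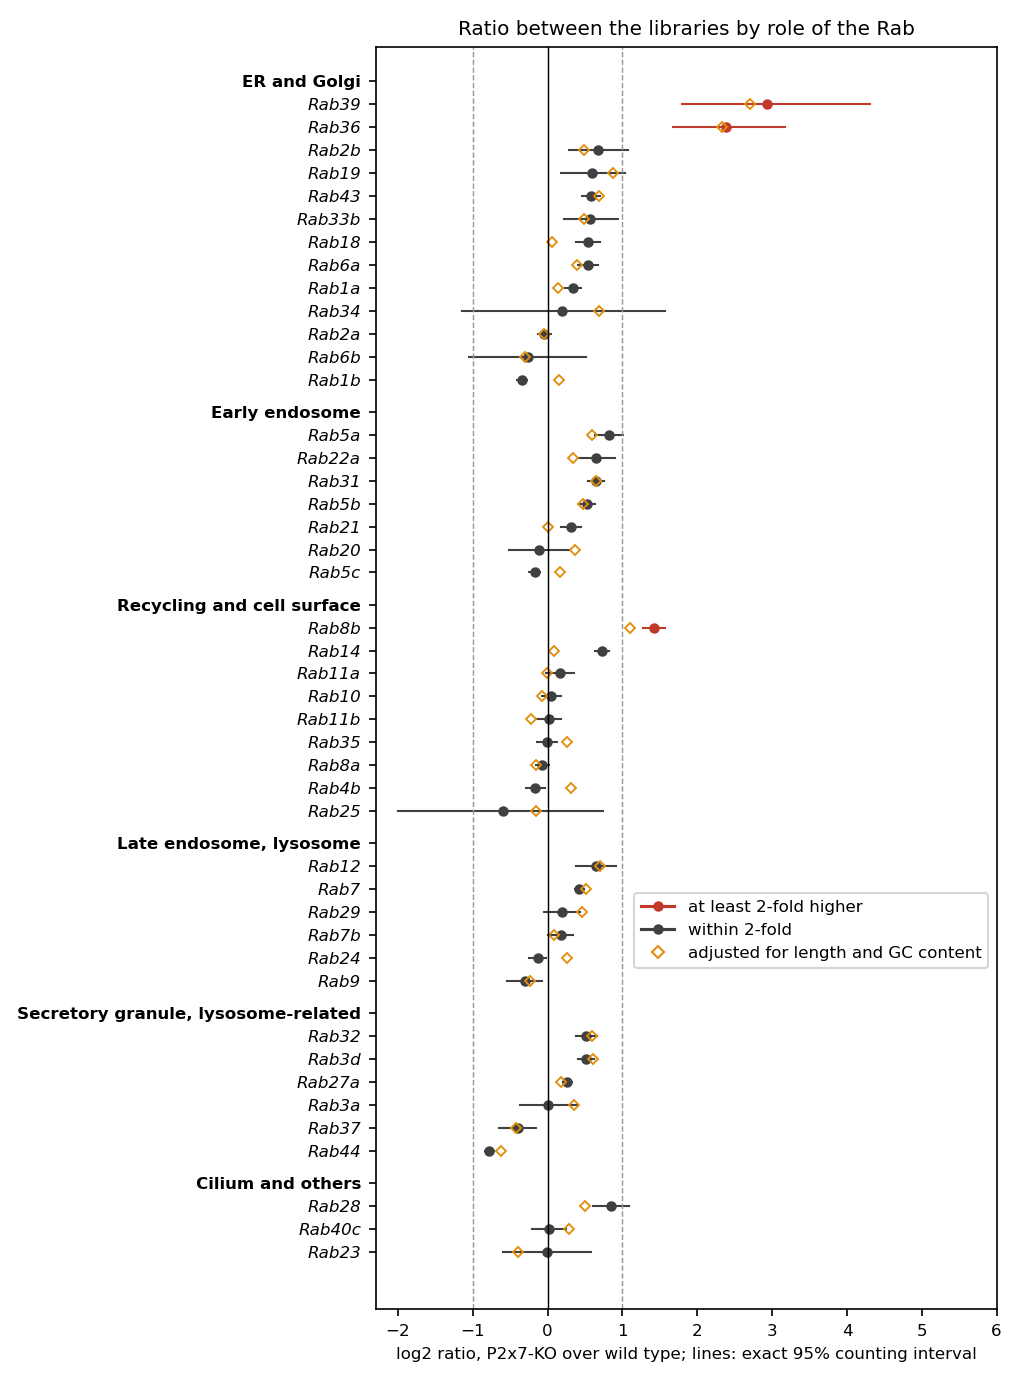
Log2 ratio of each counted Rab gene (library labelled P2x7-KO over library labelled wild type) by role, as points with exact 95% counting intervals, red where called at least 2-fold higher; open diamonds give the ratio adjusted for exon length and GC content (with 0.5 added to counts), and dashed lines mark 2-fold. Rab39, Rab36 and Rab8b lie beyond the right line, and Rab44 is the lowest of the points with a narrow interval.

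Recycling and cell-surface Rabs were split, with a median log2 ratio of 0.01, or -0.002 after adjustment, over 9 counted genes of 13. Of these, 1 was called higher (Rab8b), none lower and 8 neither. Rab4b, of fast recycling, led the group per length, with 988 counts (39.4 CPM per kb) under the P2x7-KO label and 1057 counts (44.1 CPM per kb) under the wild type label, 1.12-fold lower (1.03 to 1.22), and its adjusted log2 ratio was 0.32. Rab14, which works between Golgi and endosomes, had 2708 counts under the P2x7-KO label and 1562 under the wild type label, a ratio of 1.66 (1.56 to 1.76). It has the longest exons of the family, 13589 bp, and its log2 ratio of 0.73 became 0.08 on adjustment. Rab11a and Rab11b, of the slow recycling endosome, were close to even. Rab11a had 535 counts under the P2x7-KO label and 455 under the wild type label, a ratio of 1.12 (0.989 to 1.28), and Rab11b had 629 counts under the P2x7-KO label and 596 under the wild type label, a ratio of 1.01 (0.900 to 1.13). Rab10, which brings glucose transporters to the surface of fat cells, had 1064 counts under the P2x7-KO label and 983 under the wild type label, and Rab35, of fast recycling, had 956 counts under the P2x7-KO label and 916 under the wild type label. The intervals of both include 1, as does that of Rab8a. Rab25 had only 9 counts under the P2x7-KO label and 13 under the wild type label.

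The contrast within the Rab8 pair does not depend on how the libraries are scaled. Rab8a had 1965 counts (33.0 CPM per kb) under the P2x7-KO label and 1969 counts (34.6 CPM per kb) under the wild type label. Per exon length, Rab8a was 1.36 times Rab8b in the library labelled P2x7-KO and 3.80 times in the library labelled wild type. The Rab8b to Rab8a ratio was thus 2.80-fold higher (2.49 to 3.16). The same measure was taken for 10 pairs with the same number, and 9 had an interval off 1; 3 of these pairs are drawn from the same Rab5 genes. Counting intervals at this depth are narrow, and over all genes 35.6% of single-gene intervals lay above 1 and 34.7% below. No such share was computed for pairs of other genes, so how usual 9 of 10 is cannot be read from these values. Rab5a over Rab5c was 1.99-fold higher (1.73 to 2.29), Rab5b over Rab5c 1.62-fold (1.48 to 1.78) and Rab5a over Rab5b 1.23-fold (1.05 to 1.43). Rab2b over Rab2a was 1.65-fold higher (1.25 to 2.19), and Rab3d over Rab3a 1.42-fold (1.07 to 1.87). Rab6a over Rab6b was 1.74-fold (1.003 to 3.02) and Rab7 over Rab7b 1.19-fold (1.05 to 1.34). Rab1a over Rab1b was 1.61-fold higher (1.47 to 1.75), a gap that came to -0.01 on the log2 scale with length and GC content adjusted. For Rab11a over Rab11b the interval included 1 (1.11, 0.939 to 1.32). With length and GC content adjusted, the log2 gap was 0.43 for Rab5a over Rab5c, 0.31 for Rab5b over Rab5c and 0.12 for Rab5a over Rab5b. It was 0.70 for Rab6a over Rab6b, 0.42 for Rab7 over Rab7b and 0.22 for Rab11a over Rab11b. Taken as Rab8a over Rab8b it was -1.25, as Rab2a over Rab2b -0.53 and as Rab3a over Rab3d -0.25.

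**Figure D4:**
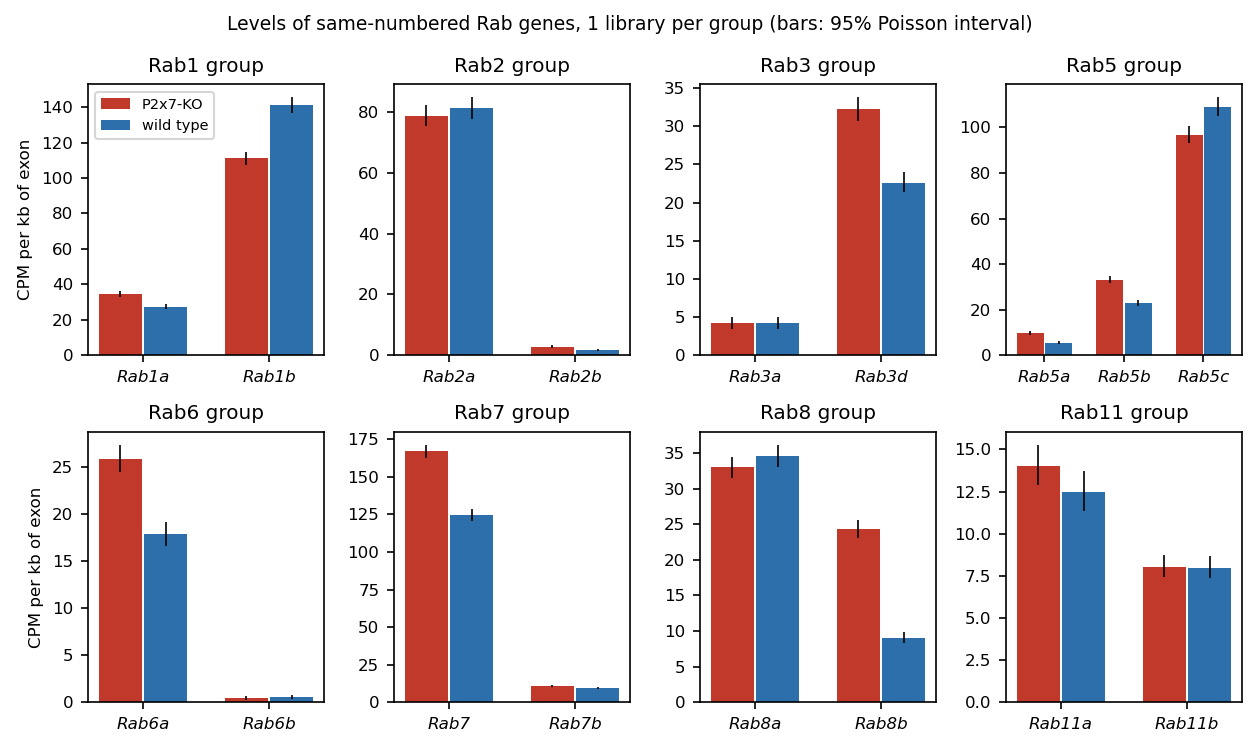
Levels of same-numbered Rab genes as CPM per kb of exon, red for the library labelled P2x7-KO and blue for the library labelled wild type, with exact 95% Poisson counting intervals and 1 library per group (each panel has its own axis from 0). In the Rab8 panel, Rab8b stands at 24.3 CPM per kb under the P2x7-KO label and 9.10 under the wild type label, while Rab8a stands at 33.0 under the P2x7-KO label and 34.6 under the wild type label.

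Late endosome and lysosome Rabs had a median log2 ratio of 0.18, or 0.36 after adjustment, over 6 counted genes of 8, and none was called. Rab7, which drives late endosomes and phagosomes to lysosomes, was the most abundant Rab of the library labelled P2x7-KO, with 5549 counts (167 CPM per kb) there and 3961 counts (125 CPM per kb) in the library labelled wild type. Its ratio was 1.34 (1.28 to 1.39), and 0.51 on the log2 scale after adjustment. Rab7b had 633 counts under the P2x7-KO label and 536 under the wild type label, a ratio of 1.13. Rab12, which sends transferrin receptor to lysosomes, had 310 counts under the P2x7-KO label and 190 under the wild type label, a ratio of 1.56 (1.30 to 1.88). Rab9, of transport from late endosomes back to the Golgi, had 281 counts under the P2x7-KO label and 332 under the wild type label, 1.24-fold lower (1.05 to 1.46). Rab29, a partner of Lrrk2, had 330 counts under the P2x7-KO label and 276 under the wild type label, a ratio of 1.14 whose interval includes 1. Rab24, linked to autophagy, had 1203 counts under the P2x7-KO label and 1259 under the wild type label, but 1258 bp of its exons lie opposite Prelid1, and without a stated strand setting their reads cannot be told apart.

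Granule and lysosome-related organelle Rabs included the clearest lower value. Of 11 genes 6 were counted, none was called, and the median log2 ratio was 0.13, or 0.27 after adjustment. Rab27a, which docks secretory granules and lysosome-related organelles at the plasma membrane, led the group per length under the P2x7-KO label. It had 5117 counts (402 CPM) there and 4084 counts (336 CPM) under the wild type label, a ratio of 1.20 (1.15 to 1.25). Under the wild type label Rab44 led the group, at 107 CPM per kb beside 86.6 for Rab27a. Rab44, a large Rab with EF-hand motifs that acts in mast cell granule release in mice, had 4016 counts (315 CPM) under the P2x7-KO label and 6577 counts (541 CPM) under the wild type label. It was 1.71-fold lower (1.65 to 1.78), and its log2 ratio of -0.78 was -0.63 after adjustment. Rab37, another Rab of regulated secretion, had 241 counts under the P2x7-KO label and 304 under the wild type label, 1.32-fold lower (1.11 to 1.57). Of the counted mast cell and basophil markers 3 of 6 were called lower, with the sums given above, among them Cpa3, a mast cell protease gene with 280 counts under the P2x7-KO label and 4058 under the wild type label. Of 11 counted neutrophil markers 2 were called lower and 1 higher. The part of either marker group in the Rab44 and Rab37 values was not tested. Rab32, of melanosomes and of the phagosomes that attack bacteria, had 1084 counts under the P2x7-KO label and 724 under the wild type label, a ratio of 1.43 (1.30 to 1.57). Rab3d, of regulated exocytosis, had 1722 counts under the P2x7-KO label and 1154 under the wild type label, a ratio of 1.43 (1.32 to 1.54). Rab3a had 119 counts under the P2x7-KO label and 113 under the wild type label.

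The last group, of cilia and other roles, held 3 counted genes of 4, none of them called. Its median log2 ratio was 0.02, or 0.29 after adjustment. Rab28, tied to ciliary and photoreceptor traffic, had 410 counts under the P2x7-KO label and 218 under the wild type label, a ratio of 1.80 (1.52 to 2.13), the highest of the Rabs within 2-fold. Its log2 ratio of 0.84 was 0.49 after adjustment. Rab40c, which joins a ubiquitin ligase, led the group per length, with 332 counts under the P2x7-KO label and 313 under the wild type label. Rab23, of Hedgehog signalling in cilia, had 53 counts under the P2x7-KO label and 51 under the wild type label, and the intervals of both include 1.

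Some Rab rows share sequence with other rows. On the same strand, Rab43 overlaps Gm45140 over 4164 bp of exon, Rab4b Gm21983 over 1280 bp and Rab27a the processed pseudogene Gm27186 over 149 bp. On the opposite strand, Rab6a overlaps Mrpl48 over 708 bp and Rab5a Pp2d1 over 221 bp. Rab2b overlaps Gm43766 over 2469 bp and Tox4 over 195 bp, also on the opposite strand. Further Rabs have overlaps that are not listed here. Processed pseudogenes named for Rab11b and Rab7 had counts of their own: Rab11b-ps1 had 302 in the library labelled P2x7-KO and 443 in the library labelled wild type, Rab11b-ps2 403 under the P2x7-KO label and 295 under the wild type label, and Rab7-ps1 122 under the P2x7-KO label and 54 under the wild type label. No label or header states how reads with several matches were counted, which leaves the values of these Rabs uncertain. Rab39, Rab36, Rab8b and Rab44 have no such overlap with another gene's exons in GENCODE M21.

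The genes that load, switch and read Rabs were described by lists drawn from textbook roles. Over 216 counted genes of 8 lists, 20 (9.26%) were called higher and 4 (1.85%) lower, beside 10.8% and 8.95% of all genes, with a median log2 ratio of 0.26, or 0.10 after adjustment. With the adjusted log2 ratios, 11 genes lay past 2-fold on the higher side and 5 on the lower. Of 11 genes for GDI, Rab escort and prenylation, 1 was called: Chm, which encodes the escort protein REP1 that presents new Rabs for prenylation, had 263 counts under the P2x7-KO label and 73 under the wild type label, a ratio of 3.44 (2.65 to 4.52). The median of these 11 genes was 0.07, and -0.12 after adjustment, on the other side of equality.

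Among 42 GEFs, 6 were called higher and 1 lower, with a median of 0.12 that came to -0.03 on adjustment. Rin2, a GEF for Rab5, had 365 counts under the P2x7-KO label and 60 under the wild type label, a ratio of 5.81 (4.41 to 7.77). The DENN-domain genes Dennd4c, Dennd1b, Dennd2a and Dennd2c were higher by 2.56-, 2.27-, 2.60- and 3.16-fold. Adjusted for length and GC content, Dennd4c (log2 0.90) and Dennd1b (0.37) came under 2-fold, while Dennd2a (1.34) and Dennd2c (1.29) did not. Of 31 GAPs, 4 were called higher and 1 lower, with a median of 0.03. Tbc1d8 had 1093 counts under the P2x7-KO label and 420 under the wild type label, a ratio of 2.49, and Evi5 (2.60), Tbc1d24 (2.09) and Tbc1d9 (6.41, from 47 counts under the P2x7-KO label and 7 under the wild type label) were higher too. Tbc1d10c was 2.09-fold lower, with 14 counts under the P2x7-KO label and 28 under the wild type label. Adjusted log2 ratios of Evi5 (0.86), Tbc1d24 (0.70) and Tbc1d10c (-0.80) were within 2-fold, and those of Tbc1d8 (1.32) and Tbc1d9 (2.48) were not.

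Effector genes had a median of 0.40 over 41, or 0.23 after adjustment, with 5 called higher and 1 lower. Eea1, the Rab5 effector that tethers early endosomes, had 925 counts under the P2x7-KO label and 354 under the wild type label, a ratio of 2.496 (2.21 to 2.83). Lrrk2, a kinase that phosphorylates Rab8 and Rab10 proteins, had 1272 counts under the P2x7-KO label and 539 under the wild type label, a ratio of 2.25 (2.04 to 2.498). After adjustment their log2 ratios were 0.77 and 0.64, which is under 2-fold. The Rab11 effectors Wdr44 (2.66) and Rab11fip4 (2.16) and the Rab3 effector Rph3a (2.27, from 38 counts under the P2x7-KO label and 16 under the wild type label) were also called higher, and of these Wdr44 came under 2-fold on adjustment (log2 0.87). Mlph, which links Rab27a to myosin Va, had 2 counts under the P2x7-KO label and 43 under the wild type label, 22.5-fold lower (5.86 to 192).

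The remaining lists held few calls. Of 20 HOPS, CORVET and retromer genes, Snx27, a sorting nexin that works with retromer, was higher at 2.12-fold, and the median was 0.19. After adjustment the log2 ratio of Snx27 was 0.79, under 2-fold, and the median 0.04. Of 41 SNARE genes, Stx17, the SNARE of autophagosomes, was higher at 2.04-fold, and the median was 0.26. After adjustment the log2 ratio of Stx17 was 0.67, also under 2-fold, and the median 0.05. None of 9 exocyst genes was called, and their median of 0.47 came to 0.03 on adjustment. Of 21 ARF, ARL and SAR genes, Arl5c (2.94) and Arl5b (2.26) were higher, and Arl4d was 5.15-fold lower, with 38 counts under the P2x7-KO label and 187 under the wild type label. The median of these 21 genes was 0.34, or 0.36 after adjustment, beside 0.23 and 0.30 for the Rabs. The log2 ratio of Arl5b, 1.17, was 0.56 after adjustment, under 2-fold, whereas those of Arl5c (1.80) and Arl4d (-1.89) stayed past it.

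**Figure D5:**
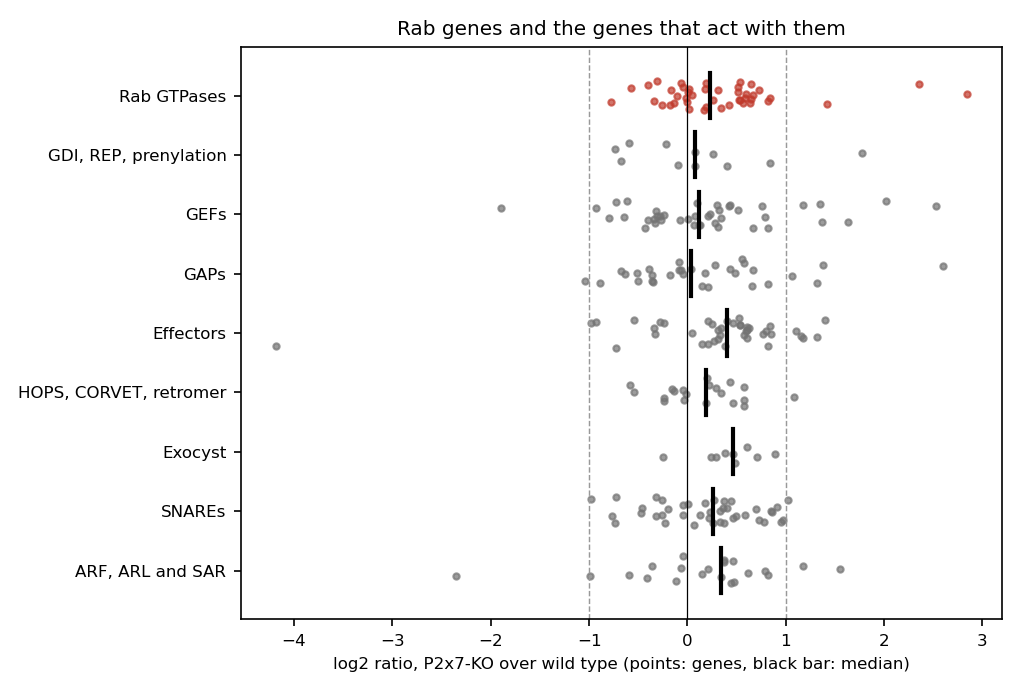
Log2 ratio (library labelled P2x7-KO over library labelled wild type) of each counted Rab gene in red and of each counted gene of the 8 lists in grey, with the median of each list as a black bar; dashed lines mark 2-fold. The list medians run between 0.03 for GAPs and 0.47 for the exocyst, and Mlph is the point farthest to the left.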

How the data were processed

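RNA was sequenced from 1 library labelled P2x7-KO and 1 labelled wild type. The authors deposited raw counts per gene, and both value columns were used (0 columns left out). Per the submitters' processing notes, HISAT2 2.0.4 and mm10 were used. The counter, its annotation, its strand setting and its rule for reads that match several places are not given in the sources available here.

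Counts were scaled over all genes by TMM (edgeR 4.0.16, R 4.3.3). CPM values are scaled counts per 1000000, and CPM per kb divides them by GENCODE M21 exon length. Ratios have exact 95% Clopper-Pearson intervals, CPM exact Poisson intervals and paralogue contrasts exact conditional intervals (scipy 1.17.1). Reads are not independent molecules. A gene was called at a ratio of 2 or more either way with an interval off 1, if its counts in both libraries summed to 20 or more. Medians use log2 ratios with 0.5 added to each count. The adjustment subtracts a smooth trend on length and GC content (mgcv 1.9.3). A floor is 3 counts. The calculation was tested on simulated data.

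All members were accounted for. The genes named are called members, the highest of each role group, same-numbered pairs and, per machinery list, up to 6 called genes by the nearer bound of the interval; P2rx7, Kit and Itgam check the labels. One gene that the rule takes is not reported here. Further members and the marker Cpa3 were named after their values were seen. The members and lists were chosen with earlier results of these data known. Alternatives were other scalings (total count, upper quartile, DESeq2 1.42.0), count filters, thresholds, denominators and both adjustments. No library could be left out with 1 per group. Promoter windows came from the RefSeq table, in which 48 of 59 members had one.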

Additional observations from a re-analysis of the deposited data

How the results depend on the processing

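The count of 3 Rabs higher and 0 lower at 2-fold was the same under total count, upper quartile and DESeq2 scaling, at a minimum of 50 counts, under both adjustments, and without 9 members whose exons overlap those of another protein-coding gene or that have a pseudogene row named for them (an alternative chosen after seeing the data). With no count filter the lower count was 1, which is Rab4a, and at 1.5-fold the counts were 11 higher and 1 lower. The median log2 ratio ran from 0.18 with no count filter to 0.30 with length and GC content adjusted. That adjustment put 10 Rabs on the other side of equality: Rab10, Rab11a, Rab11b, Rab1b, Rab20, Rab21, Rab24, Rab35, Rab4b and Rab5c. The adjustment for length alone moved 7, total count and upper quartile scaling 3 each and DESeq2 scaling 2. As a share of mRNA counts the family held 0.427% in the library labelled P2x7-KO and 0.377% in the library labelled wild type. Without ribosomal protein and mitochondrially encoded genes it held 0.442% and 0.403%. Both denominators are smaller than all counts. Leaving out ribosomal protein and mitochondrially encoded genes took them from 12435916 to 11625200 under the P2x7-KO label and from 12456212 to 11108296 under the wild type label. The cut was larger under the wild type label, and the shares lay closer together than over all counts. No paired analysis was possible because each group holds 1 library. For the 8 Rabs with some but under 20 counts, depth limits the comparison.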
